A study of Schmidtea mediterranea with 64 samples.

Results

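A set of 200 transcripts of the planarian flatworm *Schmidtea mediterranea* was abundant in whole control worms and nearly absent from X1 cells, a fraction enriched for stem cells by sorting. They were chosen from control libraries of the *set1* experiment alone. A transcript was eligible if it was listed for *set1* whole worms, *set1* X1 cells and *mll1/2* whole worms and had a mean of at least 50 RPKM (read counts scaled by transcript length and by library depth) over the 8 *unc22*(RNAi) whole-worm libraries. For each eligible transcript the mean log2(RPKM + 0.5) of the 8 *unc22*(RNAi) X1 libraries, minus that of the 8 *unc22*(RNAi) whole-worm libraries, gave a depletion value, and the 200 lowest values were taken. These 200 came from 2291 eligible transcripts, 17779 transcripts listed in the 3 tables and 28173 listed in any table of the series.

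The series held 64 RNA-seq libraries of polyA RNA in 16 groups of 4. Animals ate bacteria that made double-stranded RNA against *set1* or against *mll1/2*, and control animals ate bacteria with *unc22* double-stranded RNA, a control for the RNAi treatment itself. The groups were *set1*(RNAi) at days 6 and 9 and *mll1/2*(RNAi) at days 9 and 12, each in whole worms and in X1 cells, with *unc22*(RNAi) groups of the same experiment, tissue and day. X1 cells were sorted by Hoechst staining. The labels give no strain and do not say whether the replicates were separate cultures or pools of animals, so p-values measure the spread between these libraries, which may be technical. The deposited values pair no transcript ID with a gene name. The knockdowns were therefore not checked. The tissue of origin of the 200 transcripts was not checked against markers either, so "differentiated tissue" is not used as a name for them here. They are called the depleted transcripts, and IDs are given for 3 of them.

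As background, planarians renew all their tissues from dividing stem cells called neoblasts. The X1 gate collects cells that hold more DNA than resting cells, and it is used as a source of cycling neoblasts. Muscle, gut, nerve, gland and ciliated epidermal cells do not divide, so transcripts made in such cells are low in X1 RNA and high in RNA of the whole animal. SET1 and the MLL family are histone methyltransferases that act in COMPASS complexes on a lysine of histone H3, a mark found at active promoters. In bulk RNA from whole worms, fewer cells of a type and less RNA per cell cannot be told apart.

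The depletion value ran down to -10.39 for the most depleted transcript, which averaged 0.205 RPKM in X1 cells and 921.5 RPKM in whole worms. The last transcript taken had -6.553 (0.293 RPKM in X1 cells, 73.5 RPKM in whole worms), and the first one left out had -6.551 (1.03 RPKM in X1 cells, 136.6 RPKM in whole worms), so the edge of the list separates near-equal values. Over the 200, the median control level was 1.23 RPKM in X1 cells (0.0287 to 154.7) and 264.0 RPKM in whole worms (60.3 to 13008). The X1 level was a median of 0.468% of the whole-worm level, and at most 2.25%. These values were used for the choice and are a description. The tables may have been scaled separately, so a level set across them is approximate.

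**Figure D1:**
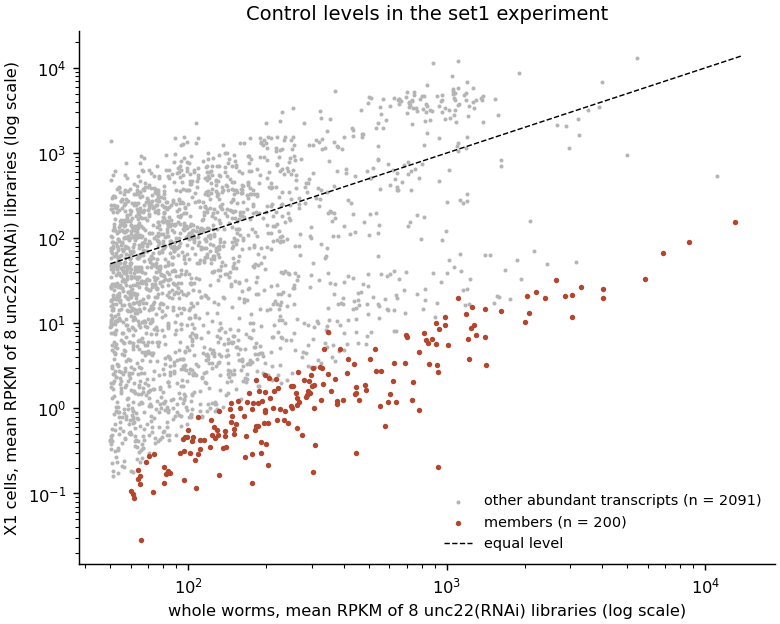
Mean RPKM of each eligible transcript in *unc22*(RNAi) X1 cells (vertical axis, log scale) against *unc22*(RNAi) whole worms (horizontal axis, log scale), 8 libraries each, in the *set1* experiment. The 200 depleted transcripts (red) form the lower edge of the cloud over the whole range of abundance, while the other 2091 (grey) spread up to and above the line of equal level (dashed).

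The *mll1/2* tables had no part in the depletion value. In their *unc22*(RNAi) libraries all 200 transcripts were listed in X1 cells, and in whole worms the rule required it. The depletion value computed there had a median of -7.31, with 1 in 4 of the transcripts above -6.53 and the weakest at -1.05. The same rule applied to the *mll1/2* control libraries shared 135 of its 200 transcripts (67.5%) with the present list, which is also 67.5% of the present list. The depleted transcripts were 262 to 17504 bases long (median 1158), close to the other eligible transcripts (median 1094), by lengths solved from the RPKM steps. In each whole-worm library of the *set1* experiment every one of them had reads, with a median of 6600 reads per library. In X1 cells the median was 30.5 reads per library in the *set1* experiment and 14.8 in the *mll1/2* experiment, and 25 and 68 of the 200 averaged under 10 reads.

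Whole-worm libraries held 16.41 to 22.51 M (mega) reads and X1 libraries 9.5 to 18.28 M. In whole worms the spread between control libraries was smaller in the *set1* experiment. The median coefficient of variation of the depleted transcripts over 4 control libraries was 4.81% at day 6 and 3.90% at day 9 there, against 10.7% at day 9 and 20.5% at day 12 in the *mll1/2* experiment. The median standard error of a change was 0.06 on the log2 scale in *set1* whole worms and 0.16 in *mll1/2* whole worms, so smaller changes could be called after *set1*(RNAi).

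The depleted transcripts made up a large part of whole-worm RNA, and that part was larger after *set1*(RNAi) at day 9 and smaller after *mll1/2*(RNAi) on both days. Their share of all RPKM listed was 19.18, 18.26, 18.34 and 18.65% in the 4 *set1*(RNAi) libraries of day 9, against 17.00, 17.09, 17.16 and 17.10% in *unc22*(RNAi). The groups did not overlap, and the mean share was 1.09 times as high after *set1*(RNAi). At day 6 the share was 18.26, 18.13, 17.77 and 18.31% in *set1*(RNAi) libraries and 17.68, 17.75, 17.64 and 17.82% in *unc22*(RNAi) libraries, and here replicate 3 of the knockdown lay inside the control range.

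After *mll1/2*(RNAi) the share was lower in every library. At day 9 it was 12.17, 11.54, 10.89 and 10.41% in *mll1/2*(RNAi) libraries, against 15.19, 14.68, 14.43 and 13.17% in *unc22*(RNAi) libraries. At day 12 it was 11.92, 12.22, 11.43 and 11.35% in *mll1/2*(RNAi), against 14.42, 14.42, 13.51 and 12.89% in *unc22*(RNAi). The mean share after the knockdown was 0.783 times that of the control at day 9 and 0.850 times at day 12, and the groups did not overlap on either day. No test was run on these sums, because the transcripts were chosen with results of these data known.

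The summed RPKM, without division by the library's total, gave less clear groups in the *mll1/2* experiment. It averaged 94647 ± 15724 RPKM after *mll1/2*(RNAi) and 121820 ± 8911 RPKM after *unc22*(RNAi) at day 9 (SD, n = 4 each), and replicate 1 of the knockdown, at 113973 RPKM, lay above replicate 4 of the control, at 109329 RPKM. At day 12 it averaged 100130 ± 4811 RPKM after *mll1/2*(RNAi) and 124260 ± 24640 RPKM after *unc22*(RNAi), with 159287 RPKM in control replicate 1 and 103183 RPKM in control replicate 4. Without the 10 most abundant transcripts, which held 39.9% of the summed control level, the knockdown mean was 0.858 times the control mean at day 9 and 0.872 times at day 12. For *set1*(RNAi) it was 1.06 times at day 6 and 1.18 times at day 9.

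**Figure D2:**
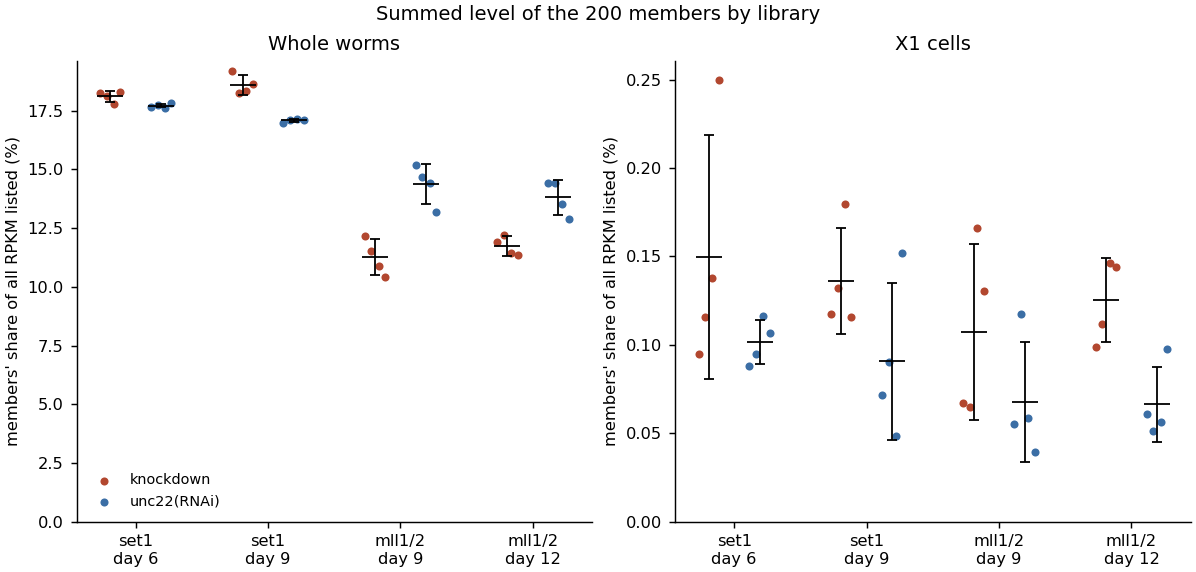
Share of all RPKM listed in a library that came from the 200 depleted transcripts, in whole worms (left) and X1 cells (right). Points are libraries (4 per group, knockdown in red, *unc22*(RNAi) in blue), bars are means and whiskers SD. In whole worms the shares at day 9 were 18.26 to 19.18% after *set1*(RNAi) and 17.00 to 17.16% in its controls, and 10.41 to 12.17% after *mll1/2*(RNAi) and 13.17 to 15.19% in its controls. In X1 cells the highest share was 0.250%.

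The first question for single transcripts was which of them changed after *set1*(RNAi). At day 6, 46 of the 200 depleted transcripts were higher and 4 lower than in *unc22*(RNAi), where 5.91% of the 19655 transcripts tested were called higher and 10.6% lower (limma, Benjamini-Hochberg adjusted p under 0.05 over all transcripts tested). Their median change was 0.07 on the log2(RPKM + 0.5) scale, against -0.001 over all transcripts tested. With quantile normalisation of the libraries the calls were 37 higher and 13 lower. The share of all transcripts called in that fit is not given, so these counts cannot be set against the shares above. At day 9, 115 were higher and 18 lower, where 19.2% of all transcripts tested were called higher and 22.9% lower. The median change was then 0.17, a fold of 1.13, against 0.01 over all transcripts tested. The *unc22*(RNAi) libraries of these comparisons are those that chose the transcripts for a high whole-worm level.

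Most of these changes were small. Among the transcripts called higher the median change was 0.25 at day 6 and 0.32 at day 9, and at day 9 only 1 transcript rose and 1 fell by at least 2-fold. All 4 knockdown libraries lay above all 4 control libraries for 105 of the 200 depleted transcripts at day 9, where 16.8% of all transcripts tested did so, and for 47 at day 6, where 8.01% did. They lay below all controls for 16 at day 9 and 8 at day 6, against 20.3% and 12.2% of all transcripts tested. Of the 46 called higher at day 6, 42 (91.3%) were higher again at day 9 and 1 was lower, and all 4 called lower at day 6 were lower again. Among the other eligible transcripts 255 of 293 (87.0%) were higher again and 311 of 326 (95.4%) lower again, so this was not particular to the depleted transcripts.

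The effect at day 9 differed from that at day 6 for 49 depleted transcripts, 39 with a higher and 10 with a lower effect at the later day (interaction term in limma, adjusted p under 0.05), where 3.14% and 5.25% of all transcripts tested were called. All 39 were called higher at day 9, and 21 of them already at day 6. Their median change was 0.16 at day 6 and 0.51 at day 9. The 10 with a lower effect were all called lower at day 9. Their median change was 0.02 at day 6 and -0.34 at day 9, and 1 of them had been higher at day 6.

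The depleted transcript with the largest mean rise over both days of *set1*(RNAi), among those called on both, was SMED30002110, which ranked 38 of 200 in whole-worm level. It had 1375, 1092, 1309 and 1372 RPKM in *set1*(RNAi) worms at day 6, against 860.2, 857.1, 858.4 and 812.4 RPKM in *unc22*(RNAi) worms. At day 9 it had 2054, 1918, 1843 and 1774 RPKM in *set1*(RNAi) worms, against 958.0, 933.3, 884.2 and 843.2 RPKM in *unc22*(RNAi) worms. Every knockdown library was above every control library on both days. On the log2 scale it rose by 0.60 ± 0.07 at day 6 (SE; limma, adjusted p = 1.1e-05) and by 1.07 ± 0.07 at day 9 (limma, adjusted p = 1.8e-09). The effect was higher at day 9 than at day 6 by 0.47 (interaction).

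The same transcript was lower at day 9 of *mll1/2*(RNAi). It had 385.4, 362.9, 316.5 and 286.7 RPKM in *mll1/2*(RNAi) worms at day 9, against 941.7, 818.7, 609.2 and 469.2 RPKM in *unc22*(RNAi) worms, and the log2 change was -1.03 ± 0.21 (SE; limma, adjusted p = 0.0078). The day 12 values were 414.1, 343.9, 328.0 and 296.0 RPKM in *mll1/2*(RNAi) worms, against 755.3, 652.0, 465.6 and 417.3 RPKM in *unc22*(RNAi) worms. The groups again did not overlap, and the change of -0.70 ± 0.21 missed the threshold (limma, adjusted p = 0.065). With the replicate number as a block, an alternative fit at that day, it passed.

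The depleted transcript with the largest mean fall over both days of *set1*(RNAi) was SMED30005345, a transcript of 374 bases. It had 451.4, 498.0, 523.8 and 571.4 RPKM in *set1*(RNAi) worms at day 6, against 790.7, 1046, 1159 and 1118 RPKM in *unc22*(RNAi) worms. At day 9 it had 270.5, 429.8, 465.1 and 434.1 RPKM in *set1*(RNAi) worms, against 824.6, 962.9, 969.7 and 1016 RPKM in *unc22*(RNAi) worms. The groups did not overlap on either day. The changes were -0.997 ± 0.14 (SE; limma, adjusted p = 0.00014) and -1.26 ± 0.14 (limma, adjusted p = 1.9e-06).

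This transcript was lower at day 9 of *mll1/2*(RNAi) as well. It had 642.4, 805.4, 643.8 and 644.6 RPKM in *mll1/2*(RNAi) worms at day 9, against 1085, 1179, 1446 and 1295 RPKM in *unc22*(RNAi) worms. The change was -0.87 ± 0.25 (SE; limma, adjusted p = 0.037). The call was lost when any 1 of the 8 libraries of day 9, or *mll1/2*(RNAi) replicate 2 or 3 of day 12, was left out, with an adjusted p up to 0.0905 by limma, and also with quantile normalisation and with voom. At day 12 the values were 577.7, 587.5, 575.4 and 573.2 RPKM in *mll1/2*(RNAi) worms, against 486.8, 1392, 1211 and 1375 RPKM in *unc22*(RNAi) worms, and control replicate 1 alone lay below the knockdown. The change of -0.83 did not pass (limma, adjusted p = 0.056) and was -1.19, and called, without that library.

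After *mll1/2*(RNAi) the calls went mostly the other way. At day 9, 64 of 199 depleted transcripts were lower and 4 higher than in *unc22*(RNAi), where 5.06% of the 18443 transcripts tested were called lower and 4.01% higher. The median change was -0.31, a fold of 0.805, against 0.03 over all transcripts tested. At day 12, 35 were lower and 0 higher, where 3.35% and 2.57% of all transcripts tested were called, and the median change was -0.26, against 0.03 over all transcripts tested. At an unadjusted p under 0.05, 93 of the 199 differed in either direction at day 12, against 4223 of the 18443 transcripts tested. With the replicate number as a block in limma, an alternative whose pairing is uncertain, 64 were lower and 0 higher at day 12. The share of all transcripts called in that fit is not given, so the 64 cannot be set against the shares above.

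Among called transcripts the falls were larger than the rises after *set1*(RNAi), where smaller changes could be called. Among those called lower the median change was -0.81 at day 9, with 20 that fell by at least 2-fold, and -0.85 at day 12, with 11 such. Over all transcripts tested, those called lower had a median change of -0.71 at day 9 and -0.64 at day 12. Those called higher after *set1*(RNAi) at day 9 had 0.30, so the contrast was not particular to the depleted transcripts. All 4 knockdown libraries lay below all 4 controls for 68 of the 200 depleted transcripts at day 9, where 7.69% of all transcripts tested did so, and for 62 at day 12, where 6.93% did. They lay above all controls for 8 and 7 transcripts, against 8.87% and 7.94% of all transcripts tested. Of the 64 lower at day 9, 28 (43.8%) were lower at day 12, and these were 80% of the 35 lower at day 12. Among the other eligible transcripts the 63 lower on both days were 39.1% of the 161 at day 9 and 54.8% of the 115 at day 12. With the block at day 12, 47 depleted transcripts were lower on both days, and no share over all transcripts is given for that fit. A difference between the days passed for 0 of 199 depleted transcripts (interaction in limma, adjusted p under 0.05) and for 0.0% of all transcripts tested, with 12 of the 199 and 855 of all 18443 tested at an unadjusted p under 0.05. Array weights in limma gave 3 and voom 0.

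These counts depended on single libraries. At day 9, 39 calls in place of 68 were made when control replicate 1 was left out, and 40 when control replicate 2 was. At day 12 the 35 calls became 22, 9 or 11 when knockdown replicate 2, 3 or 4 was left out. Leaving out control replicate 2, 3 or 4 of that day gave 12, 23 or 62.

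**Figure D3:**
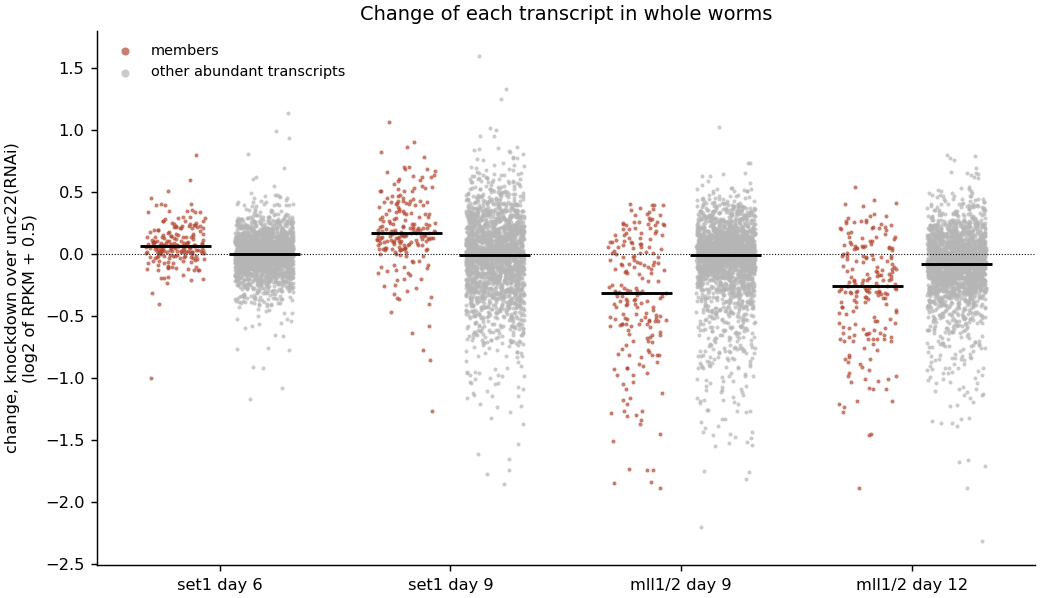
Change of each transcript in whole worms, knockdown over *unc22*(RNAi) of the same day, on the log2(RPKM + 0.5) scale, for the depleted transcripts (red) and the other 2091 eligible transcripts (grey). Black bars are medians, which for the depleted transcripts were 0.07 and 0.17 after *set1*(RNAi) at days 6 and 9 and -0.31 and -0.26 after *mll1/2*(RNAi) at days 9 and 12. Sideways positions within a column carry no value.

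The other eligible transcripts, of the same minimum level but less depleted in X1 cells, gave the values to read these against. After *mll1/2*(RNAi) at day 9, 161 of 2091 (7.70%) were lower and 60 (2.87%) higher, with a median change of -0.01. At day 12, 115 (5.50%) were lower and 27 higher, with a median of -0.08. After *set1*(RNAi) at day 9, 637 (30.5%) were higher and 717 (34.3%) lower, with a median of -0.01. Of the 200 eligible transcripts whose X1 and whole-worm levels were most nearly equal, 1 was lower and 5 were higher after *mll1/2*(RNAi) at day 9, and 87 were lower and 34 higher after *set1*(RNAi) at day 9.

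Within the list, falls after *mll1/2*(RNAi) were found at every level and every depth of depletion. In 4 groups of 50 by whole-worm level, from the most to the least abundant, 17, 16, 10 and 21 transcripts were lower at day 9, and 4, 9, 7 and 15 at day 12. In 4 groups of 50 by depletion value, from the most depleted, 15, 16, 20 and 13 were lower at day 9. After *set1*(RNAi) at day 9 the 50 most depleted transcripts had 37 called higher and 1 lower, and the 50 least depleted had 23 higher and 9 lower. Across the 200 transcripts the change at day 9 of *set1*(RNAi) and the depletion value had a Spearman rho of -0.18. The *unc22*(RNAi) whole-worm libraries of day 9 enter both the depletion value and this change. The split of the *set1*(RNAi) calls by depletion value and the rho are therefore a description, over transcripts measured in the same libraries.

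The level of a depleted transcript in the *mll1/2* controls went with its response to *mll1/2*(RNAi). In the whole-worm controls of that experiment 44 of the 200 (22.0%) were at least 2-fold lower than in the *set1* controls, and 15 (7.5%) at least 4-fold, against 2.58% and 0.861% of the other eligible transcripts. Of the 43 of these 44 that were tested, 25 were lower after *mll1/2*(RNAi) at day 9 and 21 at day 12, with median changes of -0.62 and -0.64. Of the other 156, 39 were lower at day 9 and 14 at day 12, with median changes of -0.14 and -0.17. The control libraries enter both the split and the changes, and the split was chosen after its values were seen, so this is a description.

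The choice of control libraries for the rule moved the counts in the same way. Of the 135 transcripts that the rule also took from the *mll1/2* controls, 29 were lower and 3 higher after *mll1/2*(RNAi) at day 9. Of the 64 tested among the other 65, 35 were lower and 1 higher. The whole list chosen on the *mll1/2* controls had 30 of 200 lower and 7 higher at day 9, and 13 lower and 4 higher at day 12. After *set1*(RNAi) at day 9 that list gave 111 higher and 19 lower, near the counts of the present list.

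One depleted transcript was nearly absent from the *mll1/2* experiment. It ranked 196 of 200 in level and had 42.6 to 73.1 RPKM in the 16 whole-worm libraries of the *set1* experiment, but 0.0967 to 1.14 RPKM in those of the *mll1/2* experiment. It fell under the filter of a mean of 1 RPKM there, which left 199 transcripts in the fit.

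The depleted transcript with the largest mean fall after *mll1/2*(RNAi), among those called on both days, was SMED30000013. It had 39.3, 33.9, 27.0 and 27.0 RPKM in *mll1/2*(RNAi) worms at day 9, against 212.0, 162.6, 93.5 and 51.0 RPKM in *unc22*(RNAi) worms. At day 12 it had 39.9, 34.0, 25.9 and 27.6 RPKM in *mll1/2*(RNAi) worms, against 135.0, 131.7, 66.5 and 48.2 RPKM in *unc22*(RNAi) worms. The groups did not overlap on either day, but the 4 controls differed among themselves by more than 2-fold, with replicate 4 lowest both times. The changes were -1.84 ± 0.38 (SE; limma, adjusted p = 0.0077) and -1.46 ± 0.38 (limma, adjusted p = 0.037), and the call at day 12 was lost when any 1 of 6 libraries was left out (limma, adjusted p up to 0.109). Leaving out *mll1/2*(RNAi) replicates 2, 3 or 4 or *unc22*(RNAi) replicates 1, 2 or 3 of day 12 did so.

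In the *set1* experiment the same transcript was several times more abundant. It had 347.0, 337.4, 330.1 and 353.8 RPKM in *set1*(RNAi) worms at day 6, against 340.1, 297.3, 325.4 and 311.7 RPKM in *unc22*(RNAi) worms, and these groups overlapped (change 0.10, limma, adjusted p = 0.21). At day 9 it had 298.6, 263.0, 244.9 and 285.7 RPKM in *set1*(RNAi) worms, against 333.4, 338.5, 340.9 and 324.2 RPKM in *unc22*(RNAi) worms. The change of -0.30 ± 0.05 passed (limma, adjusted p = 0.00025), and it was lower than at day 6 by 0.40 (interaction -0.40).

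The spread between control libraries seen in SMED30000013 was shared by the transcripts that fell, but it was not confined to them. On the first principal component of the *mll1/2* whole-worm libraries (34.2% of the variance), replicate 4 was the lowest of each group. The controls lay at 25.2, 18.3, 18.8 and -10.1 at day 9 and at 43.8, 26.3, 5.27 and -8.8 at day 12. The knockdown libraries lay at 9.08, 0.864, -24 and -38.6 at day 9 and at 4.62, -11.4, -25.1 and -34.4 at day 12. For the 28 depleted transcripts called lower on both days after *mll1/2*(RNAi), the median log2 level relative to the mean of all 8 controls was -0.67, -0.998, -1.21 and -1.24 in the knockdown libraries of day 9 and -0.79, -0.73, -0.998 and -1.07 in those of day 12. It was 0.39, 0.08, -0.08 and -0.43 in the controls of day 9 and 0.36, 0.18, -0.13 and -0.36 in those of day 12. Control replicate 4 was the lowest of its group for all 28 at day 9 and for 26 at day 12. The knockdown libraries lay below every control library for 26 of the 28 at day 9 and for all 28 at day 12. The 28 were picked by calls in these same libraries, which favours such a separation, so it is a description. The part of the difference between replicates in the falls was not tested.

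**Figure D4:**
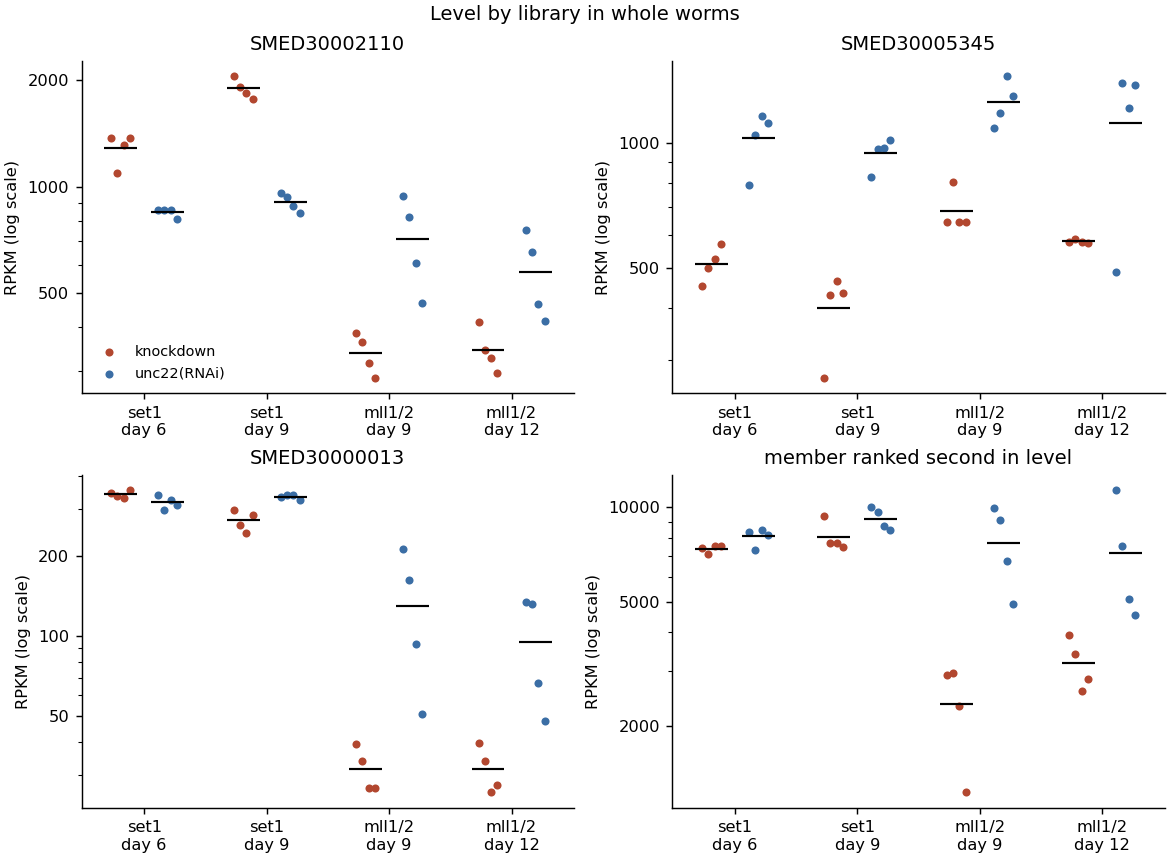
RPKM of 4 depleted transcripts in each whole-worm library (vertical axis, log scale), with 4 libraries per group, knockdown in red, *unc22*(RNAi) in blue and bars at the group mean. SMED30002110 was above its controls after *set1*(RNAi) and below them after *mll1/2*(RNAi), SMED30005345 was below its control mean in all 4 comparisons, and SMED30000013 and the transcript ranked second in level were below every control after *mll1/2*(RNAi), in controls that themselves ranged more than 2-fold.

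The most abundant depleted transcripts did not respond alike. The first in level had 15049.9, 12646, 8865 and 7679 RPKM in *mll1/2*(RNAi) worms at day 9, against 12132, 11299, 12504 and 11678 RPKM in *unc22*(RNAi) worms, and the groups overlapped (change -0.16, limma, adjusted p = 0.75). In *set1*(RNAi) worms at day 9 it had 15713, 13394, 12827 and 13533 RPKM, against 11789.5, 12661, 12668 and 12043 RPKM in *unc22*(RNAi) worms, a small rise of 0.17 (limma, adjusted p = 0.048). These values were chosen by rank in level, not by their change.

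The second in level fell strongly. It had 2916, 2947, 2326 and 1227 RPKM in *mll1/2*(RNAi) worms at day 9, against 9978, 9130, 6749 and 4903 RPKM in *unc22*(RNAi) worms, a log2 change of -1.74 with a standard error of 0.32 (limma, adjusted p = 0.0045). The day 12 values were 3902, 3409, 2591 and 2819 RPKM in *mll1/2*(RNAi) worms, against 11346, 7550, 5104 and 4518 RPKM in *unc22*(RNAi) worms. The change of -1.09 there missed the threshold (limma, adjusted p = 0.058), with no overlap of the groups. In *set1*(RNAi) worms it was at 7469 to 9401 RPKM at day 9, against 8475 to 10002 RPKM in *unc22*(RNAi) worms, and did not pass (limma, adjusted p = 0.052).

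The next 3 in level took positions between these. The third had 4767 to 7911 RPKM in *mll1/2*(RNAi) worms at day 9, against 8223 to 9193 RPKM in *unc22*(RNAi) worms, with no overlap and a change of -0.61 that missed the threshold (limma, adjusted p = 0.054). The fourth fell on both days, by 1.09 at day 9 and 0.91 at day 12 on the log2 scale, with 1482 to 3103 RPKM in *mll1/2*(RNAi) worms and 3162 to 5424 RPKM in *unc22*(RNAi) worms at day 9. The fifth had 1212 to 1998 RPKM in *mll1/2*(RNAi) worms at day 9, against 1755 to 2084 RPKM in *unc22*(RNAi) worms, and the change of -0.31 did not pass. After *set1*(RNAi) at day 9 the third was lower by limma (change -0.21) while the fourth (0.17) and the fifth (0.21) were higher.

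Day 9 was the only day sampled in both experiments, whose control libraries are separate. At that day 46 depleted transcripts were called after both knockdowns, 87 after *set1*(RNAi) only, 22 after *mll1/2*(RNAi) only and 44 after neither. Of the 64 lower after *mll1/2*(RNAi), 31 (48.4%) were higher after *set1*(RNAi), which is 27.0% of the 115 called higher there. Among the other eligible transcripts 73 of 161 (45.3%) did so. Of all 200 depleted transcripts 57.5% were higher after *set1*(RNAi) at day 9, which is above the 48.4%. Of all other eligible transcripts 30.5% were, which is below the 45.3%. A further 12 were lower after both, which is 18.8% of the 64 and 66.7% of the 18 lower after *set1*(RNAi), against 43 of 161 (26.7%) of the other eligible transcripts. Of all depleted transcripts 9% were lower after *set1*(RNAi) at day 9, and of all other eligible transcripts 34.3%. Of the 4 higher after *mll1/2*(RNAi), 3 were higher after *set1*(RNAi) and 0 lower.

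Across 199 depleted transcripts the changes at day 9 after *mll1/2*(RNAi) and *set1*(RNAi) had a Pearson r of 0.33 and a Spearman rho of 0.33. Transcripts share libraries, so these values describe the 199 and carry no test. Over both days, 71 depleted transcripts were lower after *mll1/2*(RNAi) at either day and 119 were higher after *set1*(RNAi) at either day, with 40 in both sets. Only 1 transcript was lower in all 4 whole-worm comparisons, 3 were higher on both days after *set1*(RNAi) and lower on both days after *mll1/2*(RNAi), and 43 were called in none. Apart from the 119, these counts use the day 12 calls without the block. With the block at day 12 they were 81 lower after *mll1/2*(RNAi) at either day, 44 of them also higher after *set1*(RNAi), 2 lower in all 4 comparisons, 12 higher on both days after *set1*(RNAi) and lower on both days after *mll1/2*(RNAi), and 37 called in none. These joint states were counted for the depleted transcripts only. Without a share over all transcripts they describe the list and do not set it apart.

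**Figure D5:**
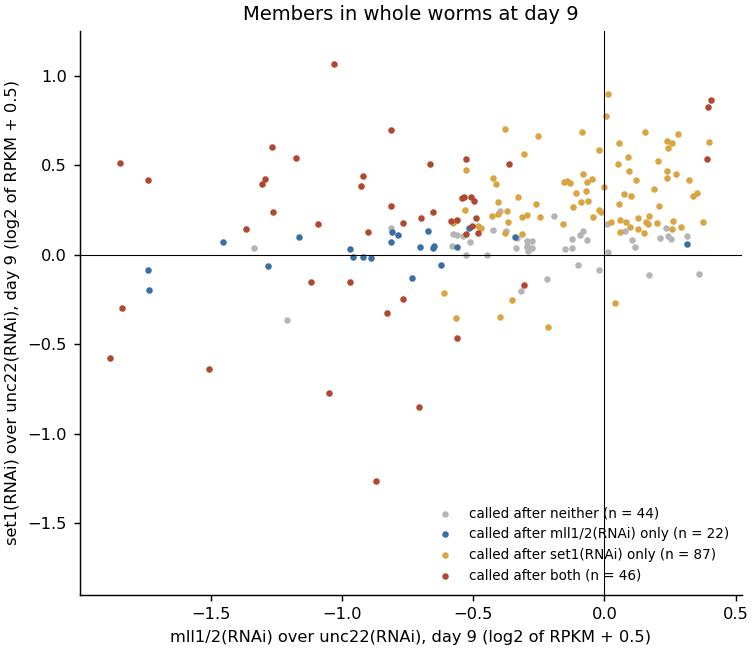
Change of 199 depleted transcripts in whole worms at day 9 after *set1*(RNAi) (vertical axis) and after *mll1/2*(RNAi) (horizontal axis), each over its own *unc22*(RNAi) libraries, on the log2(RPKM + 0.5) scale. Colours mark whether a transcript was called after neither knockdown (44), after *mll1/2*(RNAi) only (22), after *set1*(RNAi) only (87) or after both (46). The upper left includes the 31 that were lower after *mll1/2*(RNAi) and higher after *set1*(RNAi), and the lower left the 12 that were lower after both.

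In X1 cells many of the depleted transcripts had few reads. Their summed level was 0.0395 to 0.250% of all RPKM listed in the 32 X1 libraries, and 16 to 106 of the 200 had fewer than 10 reads in a library. At day 6 the summed level averaged 1575 ± 677 RPKM after *set1*(RNAi) and 1078 ± 128 RPKM after *unc22*(RNAi) (SD, n = 4 each). At day 9 it averaged 1441 ± 279 RPKM after *set1*(RNAi) and 935 ± 544 RPKM after *unc22*(RNAi). In the *mll1/2* experiment it averaged 1312 ± 645 RPKM after *mll1/2*(RNAi) and 799 ± 417 RPKM after *unc22*(RNAi) at day 9. At day 12 it averaged 1439 ± 236 RPKM after *mll1/2*(RNAi) and 908 ± 346 RPKM after *unc22*(RNAi). The knockdown mean was higher in all 4 comparisons, by 1.46 to 1.64 times, and the groups overlapped in each. As a share of all RPKM they overlapped in 3 of the 4 comparisons, and at day 12 of the *mll1/2* experiment the share was 0.0988 to 0.146% after *mll1/2*(RNAi), against 0.0510 to 0.0977% in *unc22*(RNAi).

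The most abundant depleted transcript varied widely between X1 libraries. The first in level had 46.8, 256.1, 427.3 and 64.9 RPKM in *set1*(RNAi) X1 cells of day 9, against 34.2, 182.8, 43.1 and 511.6 RPKM in *unc22*(RNAi) X1 cells. It varied several-fold between libraries of the same group, and it made up 3.25 to 30.2% of the summed level over the 32 X1 libraries. In whole worms it made up 8.77 to 13.2%. The X1 libraries with the highest sums, 2547 RPKM in *set1*(RNAi) library d of day 6 and 2139 RPKM in *mll1/2*(RNAi) replicate 3 of day 9, also had the highest levels of this transcript in their groups, at 511.6 and 617.4 RPKM. The part of other cells carried through the sort was not tested.

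By transcript, 130 of the 200 passed the filter of a mean of 1 RPKM in *set1* X1 cells and 111 in *mll1/2* X1 cells. A transcript chosen for a low X1 control level passes more easily where the knockdown is high, so the counts are given without weight. In the *set1* experiment the X1 controls are also the libraries that chose the transcripts for low values, which favours knockdown above control, and all *set1* X1 differences are a description only. After *set1*(RNAi), 14 were higher and 0 lower at day 6, where 6.64% and 13.2% of all transcripts tested were called, and 34 higher and 1 lower at day 9, where 18.0% and 22.2% were called. The *mll1/2*(RNAi) counts were 2 higher and 0 lower at day 9, where 0.663% and 3.35% were called, and 1 higher and 0 lower at day 12, where 13.2% and 15.1% were called. At an unadjusted p under 0.05, 31, 46, 12 and 11 differed in either direction in these 4 comparisons, where 4489 and 6407 of the 13503 transcripts tested in *set1* X1 cells and 1627 and 5038 of the 12525 tested in *mll1/2* X1 cells did, a larger share each time. The 14 at day 6 of *set1*(RNAi) became 9 without knockdown library a and 8 without knockdown library d. The effect differed between days for 1 transcript in *set1* X1 cells, higher at day 9, where 2.31% and 3.49% of all transcripts tested were called higher and lower, and for 0 of 111 in *mll1/2* X1 cells, where 3.17% and 3.12% were called. The *mll1/2* interaction had an unadjusted p under 0.05 (limma) for 6 of the 111, against 3066 of the 12525 tested. Array weights gave 17 calls there and voom 0. Over all 200, fitted with no filter, the median change was 0.42 and 0.54 after *set1*(RNAi) at days 6 and 9 and 0.25 and 0.11 after *mll1/2*(RNAi) at days 9 and 12. Over all transcripts tested it was -0.13 in *mll1/2* X1 cells at day 12 and within 0.05 of 0 in the others.

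All 4 knockdown libraries lay above all 4 controls for 33 and 49 of the 200 after *set1*(RNAi) at days 6 and 9, where 8.78% and 15.7% of all transcripts tested did so, and below them for 1 and 1, where 14.7% and 19.0% did. After *mll1/2*(RNAi) they lay above for 5 and 13 at days 9 and 12, where 4.69% and 9.86% did, and below for 2 and 1, where 6.08% and 13.6% did.

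At day 12 of the *mll1/2* X1 experiment *unc22*(RNAi) replicates 2, 3 and 4 stood apart from the other 13 libraries on the first principal component. Without them replicate 1 was the only control of that day, so no count of calls is given for that fit. In *set1* X1 cells the column names do not show which sample a library is, and the libraries are called a to d within each group. SMED30002110, the largest mean rise in whole worms, had 13.8, 12.5, 12.5 and 18.3 RPKM in *set1*(RNAi) X1 cells at day 9, against 5.67, 7.97, 5.05 and 7.49 RPKM in *unc22*(RNAi) X1 cells, with no overlap. These controls entered the choice of the transcript, so no test is given. Its X1 level was 4.58 to 6.95 RPKM after *mll1/2*(RNAi) at day 9, against 4.18 to 7.70 RPKM in *unc22*(RNAi) X1 cells.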

How the data were processed

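Values were taken from 4 tables, each for 1 experiment and tissue, in which the authors deposited RPKM per transcript ID and library. The submitters' processing notes name CASAVA 1.8.2, Bowtie and edgeR. The sources used here do not give the build, transcript set, counting or filters, so reads shared by near-identical transcripts are uncertain. The paper supplied describes another experiment. The depleted transcripts, lists and tests were chosen with earlier results of these data known.

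In each table, those averaging 1 RPKM or more over its 16 libraries were fitted with limma 3.58.1 in R 4.3.3 on log2(RPKM + 0.5), with 1 mean per group and a trend of variance on abundance. Each knockdown was set against its day's *unc22*(RNAi), and days were compared by an interaction. Tests were two-sided, adjusted by Benjamini-Hochberg over all transcripts tested in the table, with calls at 0.05. Fold changes on this scale understate low transcripts. The fits were tested on simulated data.

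RPKM times length came in whole steps, and 100% of values were within 0.01 read of a whole number. The recovered reads gave depth and lengths and, as an alternative, voom in limma with library sizes as the only scaling. Alternatives were other pseudocounts, filters, scalings, weights, tests and lists, each library left out and a replicate block. At day 12 of *mll1/2* whole worms every same-numbered pair of libraries correlated above 0.1 across transcripts (0.17, 0.252, 0.173 and 0.407). Replicates 1 and 3 correlated better with another number (0.472 and 0.356), so the pairing there is uncertain and the block is an alternative. No replicates were copies of each other. Named IDs were, per knockdown, the largest mean rise and fall among depleted transcripts called the same way on both whole-worm days. No rise met this after *mll1/2*(RNAi). Python 3.11.15 with pandas 2.3.3 was used.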

Additional observations from a re-analysis of the deposited data

Results flagged for a closer look

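The effect of *set1*(RNAi) in whole worms differed between days 6 and 9 for 49 depleted transcripts, by the interaction term in limma at an adjusted p under 0.05. SMED30002110 was among them, with an effect higher by 0.47 at day 9, and so was SMED30000013, with an interaction of -0.40. In *set1* X1 cells the interaction was called for 1 depleted transcript.

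A library far from the other 3 of its group was seen in 5 of 80 sets of 4 values examined (summed levels, shares and named transcripts in each group), and chance gives about 1 in 20. The summed level in *set1*(RNAi) whole worms at day 9 was 163125 RPKM in replicate 1, against 144038 to 147185 RPKM in the other 3. SMED30005345 had 805.4 RPKM in *mll1/2*(RNAi) replicate 2 of whole worms at day 9, against 642.4 to 644.6 RPKM in the others. In X1 cells it had 13.8 RPKM in library d of *set1*(RNAi) at day 6, against 5.36 to 6.59 RPKM, and 29.5 RPKM in library a of *unc22*(RNAi) at day 9 of the same experiment, against 4.53 to 6.65 RPKM. SMED30002110 had 812.4 RPKM in *unc22*(RNAi) replicate 4 of *set1* whole worms at day 6, against 857.1 to 860.2 RPKM.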

How the results depend on the processing

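Over all alternatives and libraries left out, 276 counts of calls stayed within 1.5 times of the reported count and 83 did not, 291 median changes moved by less than 1 SD and 18 by more, and 871 values of named transcripts stayed called or stayed uncalled while 20 gained and 21 lost a call. Some uncalled values among the 871 changed sign. SMED30005345 in *set1* X1 cells at day 6 ranged from -0.281 to 0.465 with each library left out in turn. No value of a named transcript changed direction with a call. A change of sign was not recorded for the medians. The median *mll1/2* interaction in whole worms ranged from -0.0245 to 0.12 with each library left out in turn. The cause of the changes below was not tested. No share over all transcripts is given for the alternative fits, so their counts show only how the calls moved. In whole worms, median scaling gave 77 calls after *set1*(RNAi) at day 6 (50 reported). Array weights gave 122 and 99 at days 9 and 12 after *mll1/2*(RNAi) (68 and 35 reported) and 3 for its interaction (0 reported). Lists of the 100 and 400 lowest depletion values gave, by their size, 28 and 104 and then 70 and 267 calls at days 6 and 9 of *set1*(RNAi), 32 and 130 and then 17 and 71 at days 9 and 12 of *mll1/2*(RNAi), and 22 and 98 for the *set1* interaction (49 reported). The rule applied to *mll1/2* controls gave 37 and 17 calls at days 9 and 12 of *mll1/2*(RNAi). Without the 10 most abundant transcripts the log2 ratio of summed levels at day 9 of *set1*(RNAi) was 0.2444 (0.161 reported).

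In X1 cells the reported counts were 14 and 35 at days 6 and 9 of *set1*(RNAi), 2 and 1 at days 9 and 12 of *mll1/2*(RNAi), and 1 and 0 for the interactions. Without a filter they were 22, 57, 1 and 4, and 3 for the *set1* interaction. At a mean of at least 5 RPKM they were 6, 15 and 0 for the first 3. Lists of 100 and 400 gave 7 and 25, 17 and 81, and, at day 12 of *mll1/2*(RNAi), 0 and 6. The list of 400 gave 4 and 1 for the *set1* and *mll1/2* interactions. The rule on *mll1/2* controls gave 7 at day 6 of *set1*(RNAi), 3 for its interaction and 2 at day 12 of *mll1/2*(RNAi). After *mll1/2*(RNAi), array weights gave 6, 7 and, for the interaction, 17, and voom 1 and 6. At day 12 a pseudocount of 0.1 gave 0, median scaling 2 and removal of a length trend 7. Omission of the 3 control libraries that stood apart left 1 control, and no count is given for it. Quantile normalisation gave 2 for the *set1* interaction.

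With each library left out in turn, whole-worm calls ranged over 40 to 61 and 117 to 134 at days 6 and 9 of *set1*(RNAi), 39 to 90 and 9 to 62 at days 9 and 12 of *mll1/2*(RNAi), 36 to 49 for the *set1* interaction and 0 to 0 for the *mll1/2* interaction. X1 calls ranged over 8 to 21, 27 to 40, 0 to 3 and 0 to 5, and over 1 to 3 and 0 to 2 for the interactions.

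With the replicate number as a block, calls in whole worms were 56 and 134 at days 6 and 9 of *set1*(RNAi), 81 and 64 at days 9 and 12 of *mll1/2*(RNAi), and 50 and 0 for the interactions. In *mll1/2* X1 cells the block gave 2, 1 and 0. Outside day 12 of *mll1/2* whole worms at least 1 same-numbered pair correlated below 0.1 across all transcripts, so the numbers were not taken as pairs there. In no comparison, day 12 included, did every library correlate best with its own number. No block could be used for *set1* X1 cells, whose columns carry no replicate number of a sample. Depth limits the X1 values, where many of these transcripts had few reads.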

Other observations

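A group of 11 depleted transcripts varied together between replicates of both experiments. They were picked because *unc22*(RNAi) replicate 1 of *mll1/2* whole worms at day 12 was more than 2-fold below each of the other 3 libraries of its group, which no other whole-worm library was for more than 3 of the 200. The most depleted transcript was among them, with 342.4 RPKM in that library and 1203, 1115 and 1076 RPKM in the other 3, and so were SMED30005345 and the second most depleted transcript. The transcript ranked 196 in level, nearly absent from the *mll1/2* experiment, was also among them, picked on a value near the floor. The picking did not use the *set1* experiment. There, replicate 1 was the lowest of its group for 8 of the 11 in *set1*(RNAi) at day 6, for 11 in *set1*(RNAi) at day 9, for 10 in *unc22*(RNAi) at day 6 and for 9 in *unc22*(RNAi) at day 9. The median log2 distance of replicate 1 to the mean of the other 3 was -0.13, -0.50, -0.19 and -0.15 in these groups, while for the other depleted transcripts it was 0.03, 0.12, 0.04 and 0.00. Replicate 4 was the highest for 7, 6, 6 and 10 of the 11. In the *mll1/2* experiment at day 9, replicate 1 was the lowest for 9 of the 11 in *mll1/2*(RNAi) and for 10 in *unc22*(RNAi), but at day 12 of *mll1/2*(RNAi) only for 3. The labels do not say what a replicate number shares between groups.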
